A study of Mus musculus with 4 samples.

Results

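Chromatin modifiers and remodelers were described in mouse liver RNA-Seq. They are the genes whose symbols name histone methyltransferases (Setd, Ehmt, Mll, Ezh, Suz12), histone demethylases (Kdm), acetyltransferases (Kat, Ep300), deacetylases and their scaffolds (Hdac, Ncor), bromodomain proteins (Brd), remodelers (Smarc, Arid, Chd, Baz, Ep400), and DNA methylation enzymes (Dnmt, Tet). Of the 7000 genes listed in the deposited results, 69 matched this rule on symbols, which used no measured value. Crebbp and the Sin3 genes, which the rule also names, had no row and were not analysed here. The same holds for other genes whose symbols fit the rule, among them Dnmt1, Tet1 and Kdm5c. Each group and family below therefore holds only the listed genes of its kind.

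The RNA came from livers of wild-type male FVB/N mice given torula yeast diets with no added selenium (0 Se, 2 mice) or with 0.1 ppm Se added as sodium selenite (0.1 Se, 2 mice). The diets began at weaning, at 3 weeks of age, and lasted 6 weeks. Ribosomal RNA was removed from total RNA, and stranded libraries were sequenced on an Illumina HiSeq instrument. The study asked how dietary Se alters liver gene expression, but the values usable here are one mean level for each gene over the 4 libraries of both diets, so nothing below compares the diets, and no value has a replicate error. Genes are listed by the outcome of the comparison of the diets, and genes with weaker evidence of a difference have no row. Every count below is therefore a count among listed genes. The level is the authors' mean CPM, a read count scaled for library size within edgeR. Because a long mRNA yields more reads than a short one at the same number of molecules, single genes were ranked against each other per length, as mean CPM per kilobase of mRNA, and CPM was set beside that of all listed mRNAs and of mRNAs of similar length. The liver is a mixture of cells, and fewer cells of a type cannot be told apart from less RNA per cell.

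DNA in the nucleus is wound on histones, and the tails of the histones carry methyl and acetyl groups. Methyltransferases and acetyltransferases write these marks, demethylases and deacetylases remove them, and proteins with bromodomains bind acetylated lysines. Remodelers use ATP to move or evict nucleosomes, while Dnmt and Tet enzymes set and oxidise the methyl groups on cytosine. In liver these proteins serve as cofactors of the nuclear receptors that govern lipid, bile acid and glucose metabolism.

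Among the 69 mRNAs, the level per kilobase ran from 0.432 for Dnmt3b, a de novo DNA methyltransferase, to 43.9 for Kat2b, an acetyltransferase also known as PCAF. The promoters of the pair of genes with the highest levels per kilobase and of the pair with the lowest, among the members with a promoter sequence, are printed here because they mark the ends of that range. They are the 250 bases before and the 50 bases after a start of each gene, from RefSeq on GRCm38.p6. This is not the build of the gene coordinates given later. Kat2b and Arid3b have 2 starts each in this reference, and a single window is printed for each gene. Capitals mark matches, on either strand, to 8 motifs. The letters searched were CCAAT for the site of NF-Y, TATAAA for the site of TBP, CACGTG for the E-box, GGGCGG for the GC box of SP and KLF factors, CCGGAAG for the ETS core, GCATGCGC for NRF1, AAGATGGCG for YY1 and TGACGTCA for the CRE, and none of these runs of letters lies inside another.
Kat2b, chr17:53566721-53567020, plus strand: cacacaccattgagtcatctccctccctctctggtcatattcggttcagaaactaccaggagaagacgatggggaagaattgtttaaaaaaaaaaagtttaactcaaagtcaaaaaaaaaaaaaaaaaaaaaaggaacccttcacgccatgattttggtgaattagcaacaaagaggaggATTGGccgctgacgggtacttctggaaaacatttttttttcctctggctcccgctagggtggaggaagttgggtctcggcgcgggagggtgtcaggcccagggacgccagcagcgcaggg
Hdac11, chr6:91156565-91156864, plus strand: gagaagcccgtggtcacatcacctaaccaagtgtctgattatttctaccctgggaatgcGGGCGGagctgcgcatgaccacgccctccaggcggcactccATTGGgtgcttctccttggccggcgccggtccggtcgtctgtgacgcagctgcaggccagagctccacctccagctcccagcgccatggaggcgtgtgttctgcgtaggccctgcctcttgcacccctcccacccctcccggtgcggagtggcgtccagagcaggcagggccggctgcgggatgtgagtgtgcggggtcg
Arid3b, chr9:57836730-57837029, minus strand: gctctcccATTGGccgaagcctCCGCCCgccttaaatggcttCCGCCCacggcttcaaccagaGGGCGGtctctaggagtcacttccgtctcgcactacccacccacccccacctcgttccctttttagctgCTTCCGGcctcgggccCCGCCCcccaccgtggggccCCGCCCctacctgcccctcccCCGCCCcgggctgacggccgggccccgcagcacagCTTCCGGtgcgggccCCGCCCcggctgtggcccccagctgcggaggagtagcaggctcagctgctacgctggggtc
Dnmt3b, chr2:153649199-153649498, plus strand: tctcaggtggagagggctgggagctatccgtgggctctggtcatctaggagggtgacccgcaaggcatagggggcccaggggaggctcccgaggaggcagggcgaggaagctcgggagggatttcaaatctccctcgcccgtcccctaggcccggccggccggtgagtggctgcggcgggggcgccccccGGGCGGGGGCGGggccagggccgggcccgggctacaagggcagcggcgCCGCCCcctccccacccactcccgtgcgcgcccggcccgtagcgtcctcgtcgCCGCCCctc

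The Kat2b window, with the highest level, was the poorest in GC of the 4, at 47% with 11 CpG dinucleotides, and held 1 match, an NF-Y site. The Hdac11 window was 66.7% GC with 22 CpG dinucleotides and held 2 matches, an NF-Y site and a GC box. The Arid3b window, from a gene at the low end, was 72.3% GC with 25 CpG dinucleotides and held 10 matches, of which most were GC boxes. The Dnmt3b window was 76% GC with 30 CpG dinucleotides, and its 4 matches were all GC boxes. Over the 32851 promoters of the same length in the reference the median GC content was 52.7%, with a median of 7 CpG dinucleotides. The ratio of observed to expected CpG was 0.672, 0.660, 0.681 and 0.694 in Kat2b, Hdac11, Arid3b and Dnmt3b, against a median of 0.384 over all promoters, so all 4 windows were rich in CpG for their base composition. A GC box was present in 35.7% of all promoters, an NF-Y site in 37.4%, a TBP site in 13.6%, an ETS core in 8.86%, an E-box in 7.15%, an NRF1 match in 2.71%, a CRE in 1.79% and a YY1 match in 1.40%. A match describes letters and is not evidence of binding. A promoter sequence was matched for 52 of the 69 members (75.4%), below the 80% set as a minimum, so the members' promoters were not compared with the rest as a set.

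The chromatin mRNAs were long. Their median length was 5417 bases (range 1503 to 19827), against 2959.5 bases over all listed genes, a ratio of 1.83. Of the 69, 58 (84.1%) were longer than the median listed mRNA. Among them 39 (56.5%) were over 5000 bases, against 1396 of 7000 (19.9%) of all listed mRNAs, and 8 (11.6%) were over 10000 bases, against 160 (2.29%). When the listed genes were divided into 20 classes of equal number by length, 19 of the 350 mRNAs in the longest class were chromatin genes. The longest were Mll2 (19827 bases) and Mll3 (16820), which methylate histones at enhancers, followed by the remodeler Chd9 (11517), the SWI/SNF subunit Arid1b (11325) and the demethylase Kdm5a (10969). The shortest were the acetyltransferase Kat8 (1503), the SWI/SNF subunit Smarcb1 (1657), the deacetylase Hdac8 (1724), the SET domain protein Setd4 (1825) and the deacetylase Hdac1 (1971).

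The additional length was mostly coding sequence. With transcripts of GENCODE vM1 (NCBIM37, the same assembly as mm9) within 10% of the deposited length, the median coding length was 3606 bases in 64 members and 1443 bases in 6127 listed genes, a ratio of 2.50, while the 3′ UTR had a median of 1317 bases against 960, a ratio of 1.37. Coding sequence made up a median of 71.8% of the chromatin mRNAs and 55.6% of all listed mRNAs. Compared with the median of listed mRNAs in the same length class, the coding share was higher in 51 of 64 members, and the 3′ UTR was longer in 10 of 64. The genes had a median of 23 exons, against 9 over all listed genes, and more exons than the median of their length class in 52 of 65. Their median span in the genome was 66.7 kb, against 25.1 kb. The largest exon number was that of Mll3, 60 exons on chromosome 5 from 24777612 to 25004601, and the matched Mll3 transcript is annotated with 10208 bases before its coding part, so its division is uncertain. The matched transcript of Kdm5d has no annotated coding part, so it was left out of the coding and UTR values and kept in those of exons and span.

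Whether chromatin mRNAs stood high or low among listed mRNAs depended on the scale. By CPM their median was 24.2 (range 1.87 to 204), against 18.7 over all listed genes, and 43 of 69 (62.3%) lay above the listed median. Per kilobase their median was 4.31, against 6.19, and 22 of 69 (31.9%) lay above. Against listed mRNAs of similar length the members were centred: 36 lay above and 33 below the median CPM of their own length class, with a median log2 ratio of 0.04, or 1.03-fold. The longest class, with 19 members, is wide: its members ran from Setd2 at 8350 bases to Mll2 at 19827. Against listed mRNAs within 10% in length instead, 37 of 69 members lay above. The members were also less dispersed than listed mRNAs in general. Of the 69, 40 (58.0%) lay within 2-fold of their class median. This compares with 36.3% of all listed mRNAs, or 38.2% when the classes were weighted as the members. By CPM, 42 of the 69 fell between 10 and 50, and this band held 41.2% of all listed genes. All 69 together made up 0.343% of the summed CPM of the listed genes.

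**Figure D1:**
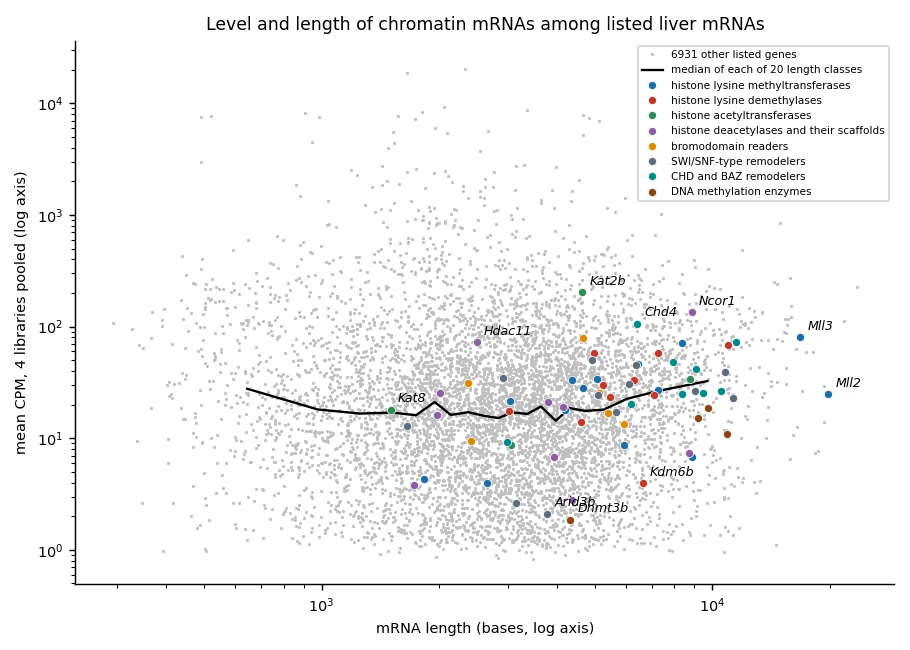
Mean CPM (log axis, 4 libraries pooled) against mRNA length in bases (log axis), with chromatin genes coloured by role, the 6931 other listed genes in grey, and the median of each of 20 length classes as a line. The chromatin genes lie to the right, with a median length of 5417 bases, and on both sides of the line, 36 above and 33 below.

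Across the 69 members the longer mRNAs had the higher CPM (Spearman correlation 0.376), whereas across all 7000 listed genes there was little relation (0.0183). Per kilobase the correlation was -0.229 across members and -0.384 across all listed genes. These are descriptions across genes measured in the same 4 libraries, and length enters the per kilobase scale itself.

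**Figure D2:**
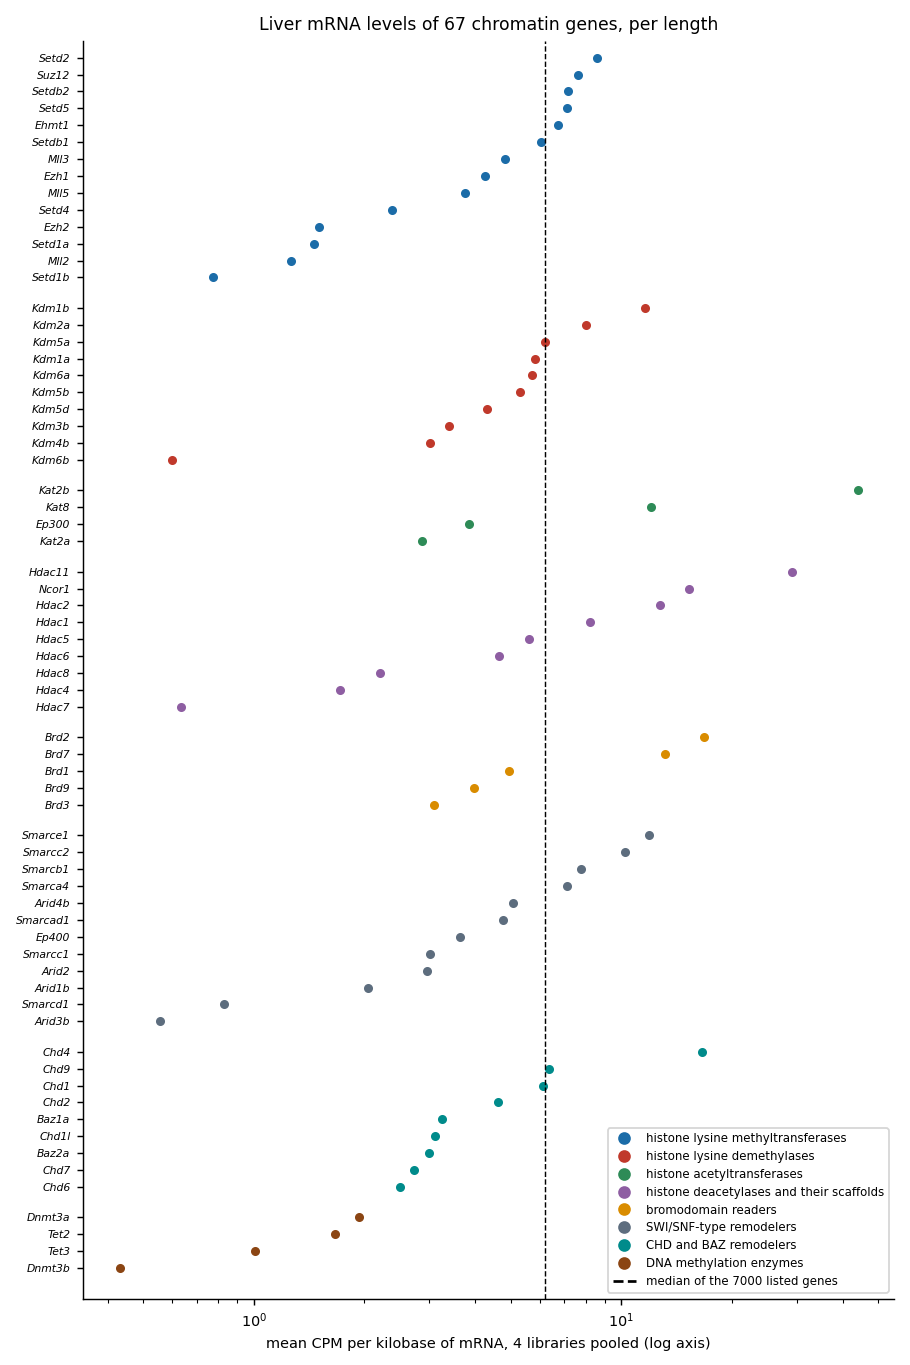
Mean CPM per kilobase of mRNA (log axis, 4 libraries pooled) of 67 chromatin genes, 1 point for each gene, grouped by role and ordered within it. The dashed line is the median of all listed genes, 6.19, and 22 of the 67 points lie to its right.

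Histone lysine methyltransferases and their Polycomb partner were 14 mRNAs with a median of 4.54 CPM per kilobase. The highest was Setd2, which methylates histones over transcribed gene bodies, at 8.60 per kilobase (71.8 CPM). Setd2 lies on chromosome 9 from 110435101 to 110521137, has 21 exons, and was 2.21-fold above the median CPM of its length class. Suz12, the subunit that Polycomb repressive complex methyltransferases need for activity, followed at 7.61 per kilobase. Of the enzymes it works with, Ezh1 was at 4.27 and Ezh2 at 1.51, a ratio of 2.83, so the form known from resting tissue exceeded the form known from dividing cells. Setdb2 (7.16) and Setdb1 (6.04), which methylate histones in silent chromatin, were within 1.19-fold of each other, and Ehmt1 (6.73), an enzyme of repressed chromatin from a different family, lay between them. Mll3 stood at 4.81 per kilobase and Mll2, on chromosome 15 from 98662100 to 98701614, at 1.26, a ratio of 3.82. Setd1a (1.46) and Setd1b (0.774), which methylate histones at active promoters, were low, and Setd1b was the lowest of the group at 0.211 times the median CPM of its length class. The SET domain proteins Setd5 (7.11), Mll5 (3.76) and Setd4 (2.37) made up the rest. In this group 8 of 14 lay above their class median.

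Among the 10 histone lysine demethylases the median was 5.51 CPM per kilobase. Kdm1b, a flavin-dependent enzyme of chromosome 13 (47138868 to 47179982), was highest at 11.6 per kilobase, and its relative Kdm1a, a subunit of the CoREST repressor, was at 5.81. Kdm2a, which binds CpG-rich promoters, was at 8.03. The listed promoter demethylases of the Kdm5 family lay close together, with Kdm5a at 6.20, Kdm5b at 5.29 and the Y-linked Kdm5d at 4.31. Kdm6a and Kdm6b remove the Polycomb mark and were far apart: Kdm6a, on the X chromosome from 17739701 to 17857062, was at 5.72 per kilobase, and Kdm6b, on chromosome 11 from 69212010 to 69227177, at 0.599, a ratio of 9.55. Kdm6b, known as a gene induced by inflammatory stimuli in macrophages, was the lowest of the demethylases at 0.150 times its class median. Kdm3b (3.40) and Kdm4b (3.02), which act on marks of repressed chromatin, lay under the median of the group and above Kdm6b. Of the 10, 7 lay above their class median.

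The 4 acetyltransferases held the member with the highest level on either scale. Kat2b, on chromosome 17 from 53706186 to 53812045 with 18 exons, reached 204 CPM and was 11.6-fold above its class median. Its close relative Kat2a, the other catalytic subunit that the SAGA complex can use, was at 8.74 CPM, on chromosome 11 from 100566060 to 100573779 with the same number of exons. Per kilobase the pair stood at 43.9 and 2.87, a ratio of 15.3. Kat8, which acetylates histone H4, was at 12.0 per kilobase, and Ep300, a coactivator of many transcription factors, at 3.84, and both were near the medians of their length classes (1.06-fold and 1.03-fold).

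Histone deacetylases and their scaffolds spread more widely than any other group, 45.9-fold from the highest to the lowest per kilobase. Hdac11, the sole class IV deacetylase, was second of all members at 29.1 per kilobase (72.5 CPM) and lies on chromosome 6 from 91106659 to 91124686 with 10 exons. Of the listed class I enzymes, Hdac2 (12.8) exceeded Hdac1 (8.24), both catalytic subunits of large nuclear repressor complexes, and Hdac8 (2.21) was lowest. The class IIa enzymes, which move between nucleus and cytoplasm, ran from Hdac5 (5.59) through Hdac4 (1.72) to Hdac7 (0.634), a ratio of 8.81 between the ends. Hdac6, a mainly cytoplasmic enzyme that acts on tubulin, was at 4.63. Ncor1, a nuclear receptor corepressor that carries a deacetylase to unliganded receptors, lies on chromosome 11 from 62129928 to 62272043. It was at 135 CPM or 15.3 per kilobase, 4.16-fold above the median CPM of its length class.

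**Figure D3:**
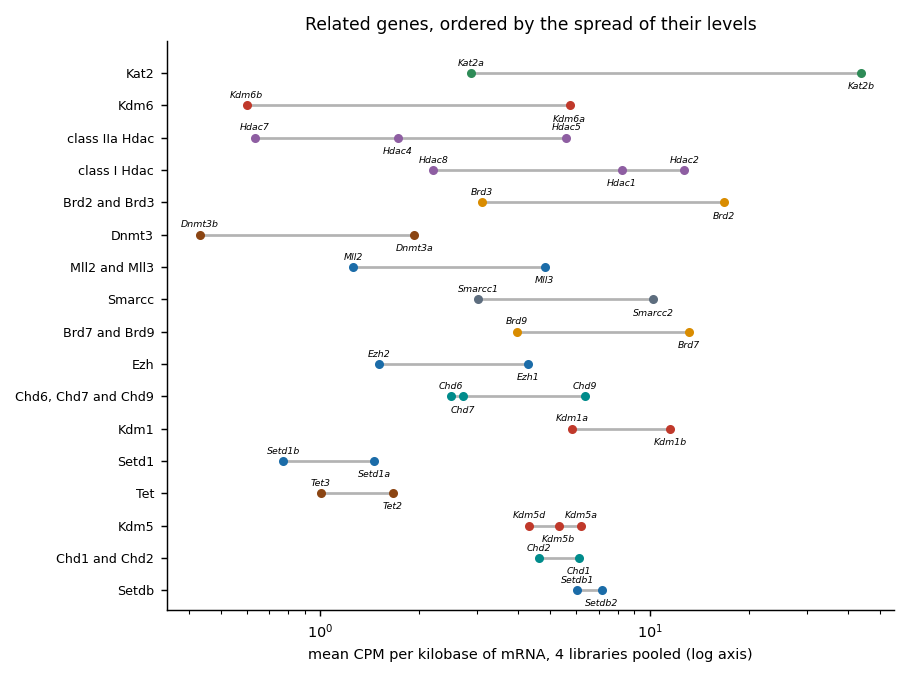
Mean CPM per kilobase of mRNA (log axis, 4 libraries pooled) of the members of 17 families of related genes, 1 point for each gene, with a line from the lowest to the highest. Families are ordered by the ratio of highest to lowest, from 15.3 for Kat2 to 1.19 for Setdb.

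The 6 bromodomain readers had a median of 4.46 CPM per kilobase. Brd2, a BET protein that binds acetylated histones at active genes, was at 16.8, against 3.09 for its relative Brd3, a ratio of 5.42. Brd2 lies on chromosome 17 from 34248965 to 34259262. Brd7 and Brd9, subunits that mark alternative SWI/SNF complexes, were at 13.2 and 3.96, and Brd1, a scaffold of acetyltransferase complexes, was at 4.95.

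SWI/SNF-type remodelers and their relatives were 12 mRNAs with a median of 4.19 CPM per kilobase. Smarce1, a small core subunit, was highest at 11.9, followed by Smarcc2 (10.3), Smarcb1 (7.75) and the ATPase Smarca4 (7.12). The scaffold subunit Smarcc1 was at 3.02, so Smarcc2 exceeded its relative by 3.39-fold. The ARID subunits Arid2 and Arid1b were at 2.95 and 2.04. Smarcd1 was at 0.829 per kilobase and 2.61 CPM. Arid4b (5.06), a subunit of Sin3 deacetylase complexes, and the remodeling ATPases Smarcad1 (4.76) and Ep400 (3.63) were intermediate. Arid3b, a DNA-binding protein named for the same ARID domain, was the lowest at 0.557 per kilobase and 2.11 CPM, on chromosome 9 from 57638160 to 57684600. Here 6 of 12 lay above their class median.

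In the CHD and BAZ group of 9, Chd4 stood apart. Chd4, the ATPase of the NuRD complex, on chromosome 6 from 125045999 to 125080609 with 39 exons, was at 106 CPM or 16.5 per kilobase, 4.71-fold above its class median. The other eight ran from 6.36 for Chd9 to 2.49 for Chd6, with Chd1 at 6.11, Chd2 at 4.63, Baz1a at 3.26, Chd1l at 3.10, Baz2a at 2.99 and Chd7 at 2.72. Of the related remodelers Chd6, Chd7 and Chd9, Chd9 exceeded Chd6 by 2.55-fold, and Chd1 exceeded Chd2 by 1.32-fold.

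The 4 listed DNA methylation enzymes were low, with a median of 1.33 CPM per kilobase, and 0 of 4 lay above the median CPM of their length class. Their median log2 ratio to that class was -1.33. Dnmt3a was at 1.93 per kilobase and Dnmt3b at 0.432, a ratio of 4.47, and Dnmt3b was the lowest of all members by CPM as well (1.87). Dnmt3b lies on chromosome 2 from 153475186 to 153513466 and has 24 exons. Of the enzymes that oxidise methylcytosine, Tet2 was at 1.66 per kilobase and exceeded Tet3 by 1.66-fold. Dnmt3a, Tet2 and Tet3 are in the longest class of mRNAs, and Dnmt3b is not.

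**Figure D4:**
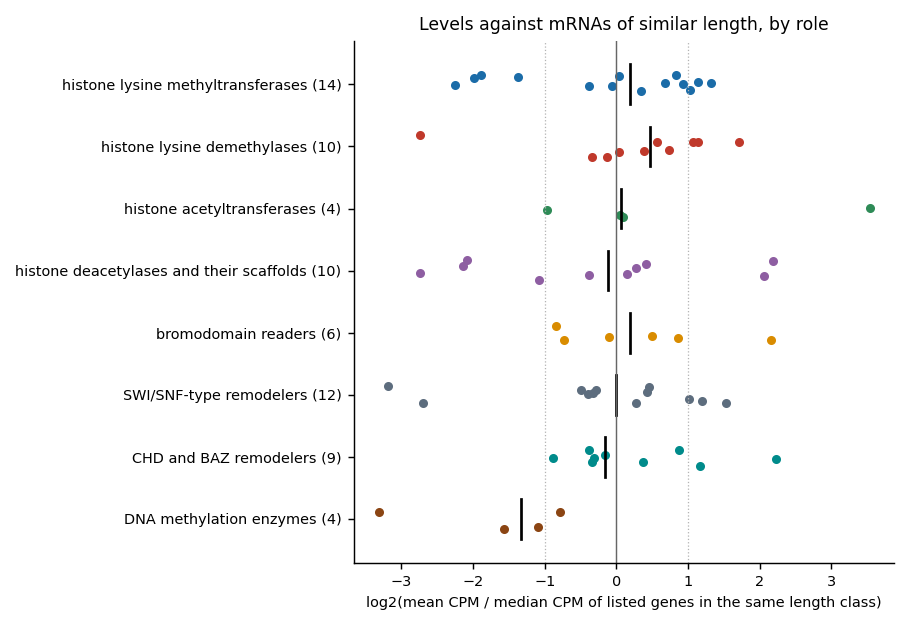
Log2 ratio of each member's mean CPM to the median CPM of listed genes in its length class, 1 point for each gene, by role with the number of genes in brackets, the black bar being the median. Kat2b lies furthest to the right at 3.54 and Dnmt3b furthest to the left at -3.32, and all 4 DNA methylation enzymes lie below 0.

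In all, 17 families of 2 or 3 closely related members were formed after the values had been seen. In 11 of them the highest and lowest gene differed by over 2-fold per kilobase, and in 5 by over 5-fold (Kat2, Kdm6, class IIa Hdac, class I Hdac, and Brd2 with Brd3). The narrowest were Setdb (1.19), Chd1 and Chd2 (1.32) and Kdm5 (1.44). Reads that aligned to more than 1 mRNA were not counted, so sequence shared by relatives is missing from both values, and a gene whose liver isoform is shorter than the deposited length is understated per kilobase.

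In the 65 members with a matched transcript the GC content of the mRNA had quartiles of 46.4% and 54.7%, with a median of 51.7% against 50.2% over 6129 listed genes, and it was higher than the median of the length class in 42 of 65. The Spearman correlation of GC content with CPM per kilobase was -0.342 across these members. It was -0.0745 across the listed genes, -0.122 across the 4653 listed genes of the members' length classes and -0.250 across the 1251 listed mRNAs over 5000 bases. Across the 52 members of at least 10 CPM it was -0.0765. By CPM the correlation was -0.420 over the 65 and -0.211 over the 52, and for the log2 ratio to the length class -0.396 and -0.176, so it was weaker without the members of low level on each scale. Limiting a set by its level weakens such a correlation by construction. The 15 members above 55% GC had a median of 2.37 CPM per kilobase, and 4 of 15 lay above their length class. The 18 members under 47% GC had a median of 5.39, and 14 of 18 lay above. Among all listed genes, 576 of 1492 above 55% and 1130 of 1980 under 47% lay above their length class. All listed genes showed the same order, with medians of 4.60 and 6.75 CPM per kilobase. These limits were chosen after the values had been seen, all points share the same 4 libraries, and the part of base composition in the levels was not tested.

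**Figure D5:**
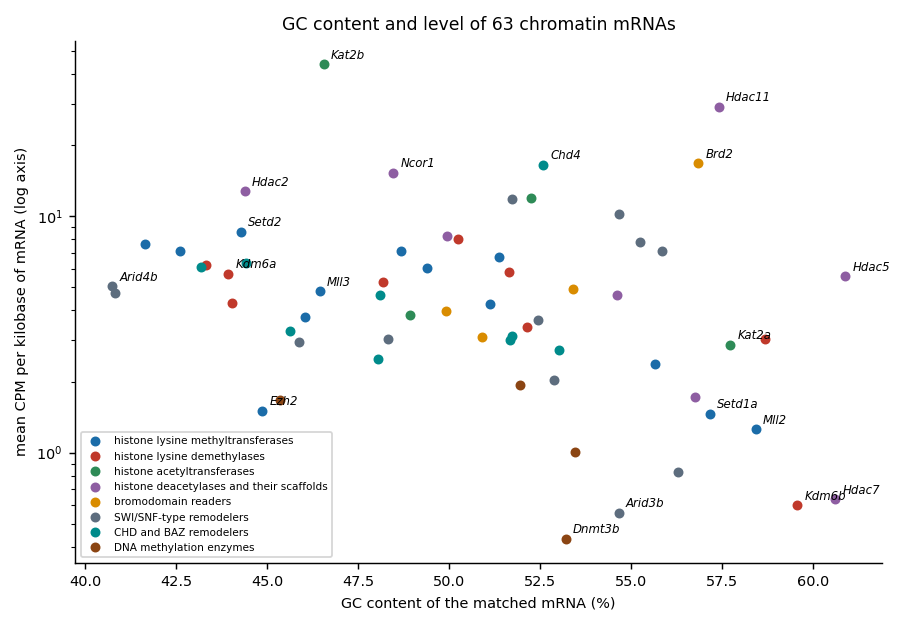
Mean CPM per kilobase of mRNA (log axis, 4 libraries pooled) against the GC content of the matched mRNA in percent, for 63 chromatin genes coloured by role. The low points at the right include Hdac7 (60.6%) and Kdm6b (59.6%), while Hdac11 (57.4%) and Brd2 (56.8%) are high at a similar composition.

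Within families the order ran both ways. In 13 families both the highest and the lowest gene had a matched transcript, and in 9 of them the lower gene was the richer in GC, by over 5 percentage points in 5 families. In the other 4 the lower gene was the poorer in GC, by over 5 percentage points in 3. Kdm6a was 43.9% and Kdm6b 59.6% GC, Mll3 was 46.4% and Mll2 58.4%, and Kat2b was 46.6% and Kat2a 57.7%. The 4 families of the opposite order were Ezh, Smarcc, class IIa Hdac, and Brd2 with Brd3. Ezh2 was 44.9% GC and lower than Ezh1 at 51.1%, and Smarcc1 was 48.3% and lower than Smarcc2 at 54.7%. The order of the Setdb pair, one of the 9, reverses by CPM.

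Other chromatin genes outside the rule were taken from a list of 75 partners and 27 further enzymes (sirtuins, other lysine methyltransferases and other JmjC proteins). The 75 partners belong to the members' complexes or to Polycomb repressive complex 1. Of the 75 partners, 37 were listed, with a median of 3.66 CPM per kilobase (range 0.632 to 14.2), and 13 of 37 lay above the median CPM of their length class, against 36 of 69 members. Of 16 genes of Polycomb repressive complex 1, 9 were listed with a median of 3.02 per kilobase and 3 above their class. The listed partners of the Suz12 complex were Eed (7.84 per kilobase), Phf1 (3.75) and Jarid2 (1.89), 0 of 3 above their class. The 5 listed partners of the Mll and Setd1 complexes had a median of 5.19 per kilobase, and the 7 listed partners of Sin3, Ncor and CoREST complexes a median of 3.66, with 3 and 2 above their class. The 4 listed SWI/SNF partners had a median of 7.62 per kilobase, with 2 of 4 above their class. They were Phf10 at 11.0, Pbrm1 at 8.85, Bcl7b at 6.40 and Bcl7a at 1.78. The highest partner per kilobase was Tbl1x, a subunit of the Ncor complex, at 14.2. Of the 27 further enzymes 10 were listed, with a median of 3.73 per kilobase and 4 of 10 above their class. They include Nsd1, a lysine methyltransferase, which was at 137 CPM, the highest CPM of either list, and at 10.7 per kilobase. Of members' relatives under other symbols, Myst2 (Kat7) was at 4.70 per kilobase, Myst3 (Kat6a) at 4.69 and Wbp7 (Kmt2b) at 1.22.

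The tissue label was checked on marker genes. Of 6 hepatocyte markers 3 were listed, Apoa1 at 7619 CPM per kilobase, Cyp2e1 at 4180.1 and Serpina1a at 1230.3. Markers of other liver cells were listed at lower levels, 3 of 4 for Kupffer cells (5.15 to 74.8 per kilobase), 2 of 3 for sinusoidal endothelium (16.4 to 76.9), 3 of 3 for stellate cells (1.67 to 11.1) and 1 of 3 for leukocytes (Ptprc, 3.93). The other markers, with both for bile duct and both for red cells, had no row and were not analysed here. The part of each cell type in the levels of chromatin mRNAs was not tested.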

How the data were processed

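Liver RNA of 2 mice on the 0 Se diet (mice 1 and 2) and 2 on the 0.1 Se diet (mice 4 and 5) was sequenced by the authors in 50 cycles. The authors removed ribosomal reads, aligned the rest with Bowtie to RefSeq mRNAs of mm9 (the longest isoform of each gene), kept unique alignments with up to 2 mismatches, and used edgeR to compare the diets over genes with more than 1 CPM (reads of a gene scaled to the mapped total) in at least 3 samples. The deposited log2 mean CPM was made by the authors over all 4 libraries, and was used with the deposited mRNA length. CPM was obtained as 2 to the power of that log2 value, and no pseudocount or filter was added at this step. Whether the deposited value already holds a pseudocount is not stated in the sources. CPM was normalized by the authors within edgeR, and the method of normalization and the tool versions are not stated in the sources.

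The deposited results also hold the authors' own log2 fold change, p-value and FDR of the diets. These were not used. Rows follow the order of that p-value and end short of its full range, so whether a gene is listed depends on the comparison of the diets. There were 0 columns for single mice, so the planned test of counts, the omission of each mouse and depth per library could not be obtained, and the depth is unknown. The paper states that animals were housed in groups, and does not say which of these mice shared a cage or a litter. Apart from this and the mouse numbers, nothing in the sources describes separate handling of the samples.

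Each member was set beside the median of listed genes in its class of length (20 classes of equal number). Of the 7000 genes, 6933 were matched to GENCODE vM1, 68 members by symbol and 1 by synonym, and features come from the transcript with the longest coding part within 10% of the deposited length. The script for the class medians was checked on simulated data with known shifts, and its output is not quoted. No comparison was tested for significance, since 1 pooled mean per gene allows no test. Alternatives were 10 classes, a window of 10% in length, CPM per kilobase, a minimum of 2 CPM, members under other symbols, and another source of length. Genes named were the highest and lowest of each role, the extremes of level and length and the families, and the other members were named to account for each, except that 2 members counted in the totals are not reported here. Members and lists were chosen with earlier results of these data known. Calculations ran in Python (3.11.15) with pandas (2.3.3), scipy (1.17.1) and numpy (2.4.6), and plots were drawn with matplotlib (3.10.9).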

Additional observations from a re-analysis of the deposited data

How the results depend on the processing

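The share of chromatin mRNAs above the median of all listed genes moved from 62.3% by CPM to 31.9% by CPM per kilobase, because the members are long and the second scale divides by length. With a minimum of 2 CPM it was 58.8%, and with 3 genes under other symbols added 62.5%. The share above the median of mRNAs of similar length was 52.2% with 20 classes, with 10 classes and per kilobase, 53.6% with mRNAs within 10% in length, and 47.1% (32 of 68) with a minimum of 2 CPM, so which side of the class median held more members was not settled. The share longer than the listed median was 84.1% with the deposited lengths and 81.2% with the longest GENCODE vM1 transcript, an alternative chosen after seeing the data because the reference used here gives no RefSeq transcript lengths. The leading gene was kept in 16 of 17 families by CPM, the exception being Setdb, where Setdb1 was then the higher. The alternatives for promoter base composition were not run, since too few members had a promoter sequence. No paired analysis was possible because the deposited results hold no values for single mice, and for the same reason leaving out each mouse was not run. Depth is unknown, so the precision of low values such as Dnmt3b (1.87 CPM) cannot be given.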
